A study of Mus musculus with 8 samples.

Results

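The sarcoplasmic reticulum calcium pumps (SERCA) of muscle were examined in mouse gastrocnemius labelled wild type or GR KO, a knockout of the glucocorticoid receptor. The small membrane peptides that inhibit the pumps and the proteins that store or buffer the same calcium were examined with them. The genes were Mrln, Sln, Pln, Atp2a1, Atp2a2, Casq2, Hrc and Pvalb, 8 of the 18193 genes with a probe set of their own on the array. They were taken as a named list, and every probe set whose only gene symbol in the platform annotation was one of the 8 was used, which gave 16 of 34945 single-gene probe sets. The list was chosen by the GR_KO against control differences in signal on these arrays, above all that of Mrln, so the group differences of these 8 genes are given below as a description with no test.

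Total RNA of the gastrocnemius, the large calf muscle, had been biotin-labelled and hybridised to Affymetrix arrays, 1 array per sample. The 4 control samples were labelled wild type, and the 4 GR_KO samples carried the genotype label GR KO, which the series' design text writes as GR(i)skm-/-. Both groups had the strain background C57/Bl6J and were housed under the same light and dark cycle. The sources used here do not give age, sex, treatment or the promoter or Cre line behind the deletion, nor do they say that each sample came from a separate animal.

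After each contraction, SERCA pumps use ATP to return calcium from the cytosol to the sarcoplasmic reticulum, and the muscle relaxes. Atp2a1 encodes SERCA1, the pump of fast fibres, and Atp2a2 encodes SERCA2, the pump of slow fibres and the heart. Myoregulin (Mrln), sarcolipin (Sln) and phospholamban (Pln) are single-pass micropeptides of the reticulum membrane that bind a pump and lower its affinity for calcium. Myoregulin is found in skeletal muscle, phospholamban mainly in the heart and in slow fibres, and sarcolipin is low in adult fast limb muscle of the mouse. Casq2 and Hrc encode calcium-binding proteins of the reticulum lumen, and Pvalb encodes parvalbumin, a cytosolic calcium buffer of fast fibres.

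The glucocorticoid receptor binds DNA at an inverted repeat of AGAACA, or at single half-sites. The promoter windows of Mrln, the inhibitor that read lower in GR_KO muscle, and of Pln, an inhibitor too dim here to show whether it differed, are printed here, since the deleted gene encodes a DNA-binding factor. Each window runs from 250 bases before to 50 bases after the RefSeq start site, 5′ to 3′, in lower case with AGAACA on either strand in capitals. The Mrln window is chr10:70204414-70204713 and the Pln window chr10:53337436-53337735, both on the plus strand of GRCm38.p6.
Mrln: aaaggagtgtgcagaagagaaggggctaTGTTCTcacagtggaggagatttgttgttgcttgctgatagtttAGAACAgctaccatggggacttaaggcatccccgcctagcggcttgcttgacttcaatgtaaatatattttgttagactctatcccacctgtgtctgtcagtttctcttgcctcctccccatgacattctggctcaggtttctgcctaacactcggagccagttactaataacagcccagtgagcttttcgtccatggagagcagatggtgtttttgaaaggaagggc
Pln: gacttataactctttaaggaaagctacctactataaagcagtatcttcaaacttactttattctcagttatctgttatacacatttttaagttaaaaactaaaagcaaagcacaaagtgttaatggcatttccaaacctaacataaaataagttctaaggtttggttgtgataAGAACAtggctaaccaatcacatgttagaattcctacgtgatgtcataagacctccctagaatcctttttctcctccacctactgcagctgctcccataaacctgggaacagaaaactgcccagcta
The Mrln window held the half-site at 222 to 217 bases before the start site on the opposite strand and at 178 to 173 bases before it on the gene's strand. The Pln window held it once, at 77 to 72 bases before the start site. Of 32851 promoter windows of this length in the RefSeq table, 18.97% held AGAACA on either strand and 2.54% held it more than once. The full repeat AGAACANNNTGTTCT was in 3 of the 32851 windows and in none of the windows of these genes. RefSeq windows were matched for 6 of the 8 genes, 7 windows in all, and AGAACA was found in a window of Mrln, Pln and Pvalb. The E-box CANNTG, to which myogenic factors bind, was in windows of all 6 genes and in 72.31% of all windows, counting both strands, and CAGCTG, a form of it, was in windows of Atp2a1, Hrc and Pln and in 16.3% of all. These are matches of letters, not measured binding, and bases outside the windows were not searched. Whether the receptor acts on any of these genes through such sites was not tested.

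The receptor gene Nr3c1 had 6 probe sets, all with a log2 fold change below 0, and 2 of them separated the groups. Of these, 1460303_at gave 377, 307, 307 and 352 on the control arrays and 134, 79, 76 and 94 on the GR_KO arrays (-1.84), and 1457635_s_at gave 179, 189, 114 and 100 against 43, 39, 35 and 29 (-1.96). The brightest, 1421867_at, which represents the gene in the limma test, overlapped at 289, 213, 287 and 513 against 222, 169, 120 and 105, with a log2 fold change of -1.07 ± 0.29 (SE, adjusted p = 0.777) that was -0.82 without control replicate 4. The log2 fold changes of the dimmer 1421866_at, 1431378_at and 1453860_s_at were -0.38, -1.34 and -0.32, and their groups overlapped. Probe sets named _s_at, 1457635_s_at among them, are of a type that can match several transcripts. Which exons had been deleted, and so which probe sets check the deletion, is not given in the sources used here. The arrays had been scaled alike, with median signals between 18 and 26. Control replicate 4 stood apart: the geometric mean signal of its spike-in controls was 2.90-fold that of the other control arrays, and its highest signal was 31176, against 12323 to 19231 on the other arrays. It also had the lowest score of the slow-fibre contractile genes (mean log2 signal of 9 genes) at 8.41, against 9.10 to 10.1 on the other arrays, and the highest score of the fast-fibre contractile genes (9 genes) at 14.6, against 13.3 to 14.0. Where a result turned on this array, the value without it is given beside it. Skeletal muscle markers were bright on every array, with signals from 5744 to 31176 for the 8 genes of that list, Ckm, Acta1 and Myh4 among them. Of 9 heart markers, 6, Myh6 and Nppa among them, were below the signal filter described next, with signals between 2 and 24 on all arrays. The 3 above it were Tnnt2 (19 to 42), Myl2, which slow fibres also make (2332 to 4902), and Myl4, which read 246, 210, 214 and 164 on control and 288, 274, 355 and 280 on GR_KO arrays (log2 fold change 0.53, adjusted p = 0.850 in limma).

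The limma test covered genes whose mean log2 signal over the 8 arrays exceeded that of the middle probe set, equal to a signal of 19.4. This kept 11062 genes, each at its brightest probe set, and 7 of the 8 genes described here, all but Pln. Of the 16 probe sets, 11 were above the filter. Of the genes tested, 6 (0.0542%) were lower in GR_KO muscle at an adjusted p under 0.05 and 0 were higher (262 higher and 250 lower at an unadjusted p under 0.05). Of the 7 tested genes of the calcium pump group, 1, Mrln, was among those 6, and since this contrast chose the genes, nothing is read from that count.

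Mrln, the skeletal muscle inhibitor of SERCA, was lower in GR_KO muscle. Its single probe set 1430036_at had signals of 1919, 1648, 1654 and 1556 on the control arrays and 749, 525, 983 and 618 on the GR_KO arrays. All 4 GR_KO signals lay below all 4 control signals, and the lowest control signal was 1.58-fold the highest GR_KO signal. The mean ± SD (n = 4) was 1694 ± 156 for the controls and 719 ± 199 for GR_KO, or 41.4% of the control level on the log scale. The log2 fold change was -1.27 ± 0.19 (SE), with a 95% interval from -1.68 to -0.87, which in linear terms is from 0.312 to 0.549 of the control level. By size it was the 24th lowest of the 11062 log2 fold changes. Groups separated in this direction were seen in 143 of the 11062 genes (1.29%) and in the other direction in 142 (1.28%). Mrln was the only one of the 7 tested genes in either. Chance also separates 4 arrays from 4 in some genes, so these are not counts of changed genes. The 4 controls differed at most 1.23-fold from each other and the GR_KO samples at most 1.87-fold, so the GR_KO group was the more spread one. In RNA of a whole muscle, fewer cells that make a transcript and less transcript per cell cannot be told apart.

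The Mrln difference was as large without the array that stood apart. Its log2 fold change was -1.31 without control replicate 4 and -1.30 with the slow-fibre score as a covariate. With single arrays left out it ranged from -1.44 without GR_KO replicate 3 to -1.13 without GR_KO replicate 2. No array left out could have turned the sign, since the groups did not overlap. Mrln was among the called genes in the fit without GR_KO replicate 3 and in none of the 7 other fits with an array left out, and as with the count above nothing is read from this. The number of genes called was 0 when control replicate 1 or 3 or GR_KO replicate 2 or 4 was left out, 2 when GR_KO replicate 3 was and 3 when control replicate 2 was. Markers of other cells in the muscle were not evenly placed either, and 0 of them were called. Of 10 tested endothelial markers 9 were above 0 on the log2 fold scale (median 0.37), with list scores, the mean log2 signals, from 8.49 to 8.81 in control and from 8.80 to 9.32 in GR_KO muscle, and of 9 fibroblast and matrix markers 7 did (median 0.55), with scores from 8.73 to 9.75 and from 9.67 to 9.91. The lowest control score of both lists was that of control replicate 4. Without it the medians were 0.27 and 0.31, and the lowest control scores 8.73 and 9.38. In limma 4 endothelial and 3 fibroblast markers had an unadjusted p under 0.05, and without that array 2 and 1 had. All 5 Schwann cell and nerve markers were above 0 (median 0.50, and 0.27 without control replicate 4), as were 6 of 8 smooth muscle and pericyte markers (0.22 and 0.11) and both tested erythrocyte markers (0.30 and 0.18). Of 6 macrophage and leukocyte markers 2 were above 0 (-0.06 and -0.03), of 3 adipocyte markers 1 (-0.11, and 0.13 without that array) and of 3 satellite cell markers 1 (-0.14 and -0.13). Of the 8 skeletal muscle markers, 1 lay above 0 (median -0.08), and without control replicate 4 all 8 did (0.18). The medians without that array were computed after the values had been seen. The part of these markers in the Mrln result was not tested.

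**Figure D1:**
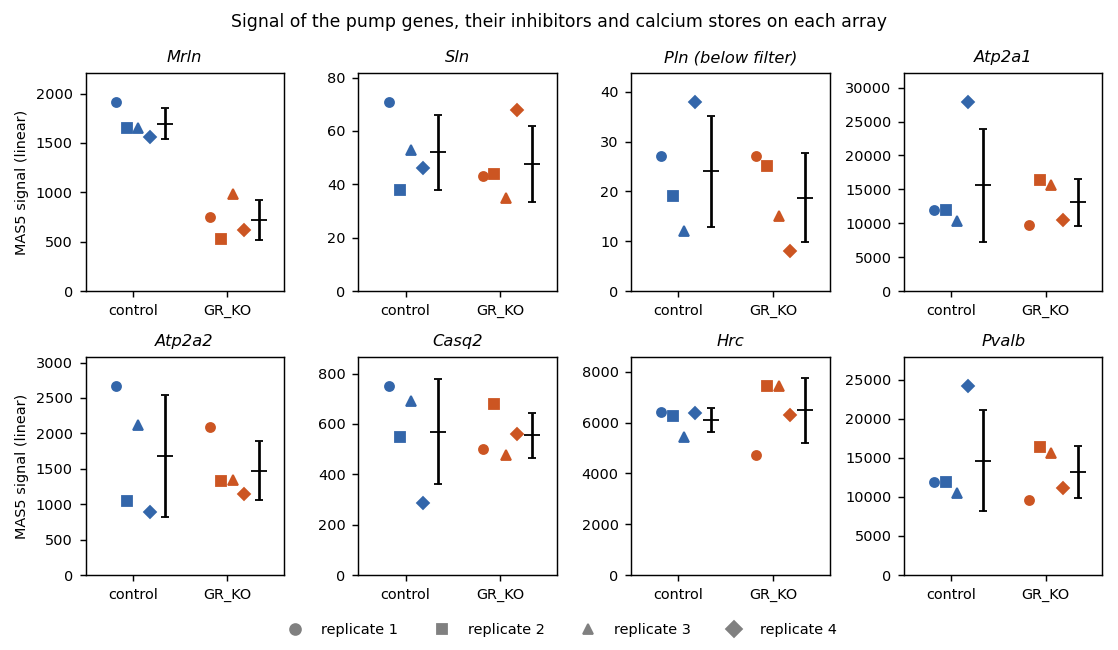
MAS5 signal (linear axis from 0) of each gene at its brightest probe set on the 4 control and 4 GR_KO arrays, with symbols for the replicate numbers and bars for mean ± SD. Mrln lies between 1556 and 1919 in control and between 525 and 983 in GR_KO muscle, while the groups of the 7 other genes overlap.

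The other micropeptides read dim. Sln, the inhibitor known from slow muscle and the atria, had signals of 71, 38, 53 and 46 on control and 43, 44, 35 and 68 on GR_KO arrays at its brighter probe set, 1420884_at. The groups overlapped almost wholly, with the highest and the lowest of the 8 signals in different groups. The log2 fold change was -0.14 ± 0.26 (SE), with a 95% interval from -0.71 to 0.44, so a decrease to 0.609 of the control level lay within it. The second Sln probe set, 1420883_at, was below the filter, at 10, 1, 1 and 1 on control and 2, 4, 3 and 1 on GR_KO arrays. Such signals carry no usable fold change.

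Pln, the phosphorylation-controlled inhibitor of SERCA2, had 3 probe sets, none above the filter. The brightest, 1460332_at, read 27, 19, 12 and 38 on control and 27, 25, 15 and 8 on GR_KO arrays, and the groups overlapped. Its log2 fold change in a fit without the filter was -0.38 ± 0.50 (SE), with a 95% interval from -1.52 to 0.75. The signals of 1423359_at ranged from 10 to 35 and those of 1450952_at from 4 to 42, with log2 fold changes of -0.17 and -0.23. A change as large as that of Mrln lies within this interval, and so does 0, so these signals do not show whether Pln changed that much.

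Atp2a1, the fast-fibre pump, was among the brightest probe sets of the array. Its probe set 1419312_at read 11966, 12021, 10367 and 27942 on control and 9799, 16369, 15635 and 10487 on GR_KO arrays. Control replicate 4 stood far above the 7 other arrays, and those of the 2 groups overlapped. The log2 fold change was -0.17 ± 0.30 (SE; 95% interval from -0.83 to 0.50), and without control replicate 4 it was 0.16, so its sign rested on that array. The signal was 66.2% to 89.6% of the highest signal of the same array. Pvalb, the fast-fibre calcium buffer, had the same pattern at 1417653_at: 11908, 11852, 10473 and 24229 on control and 9571, 16328, 15560 and 11117 on GR_KO arrays. Its log2 fold change was -0.10 ± 0.27 (SE; 95% interval from -0.70 to 0.50) and was 0.17 without control replicate 4. The Pvalb signal was 70.1% to 87.2% of the highest of its array. How far such bright probe sets still follow the amount of RNA was not tested.

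Atp2a2, the pump of slow fibres, varied more within the groups than between them. Its brightest probe set 1416551_at read 2673, 1042, 2115 and 891 on control and 2083, 1325, 1345 and 1148 on GR_KO arrays. The controls ran from 891 in replicate 4 to 2673 in replicate 1 and held the whole range of the GR_KO arrays. The log2 fold change was -0.08 ± 0.33 (SE; 95% interval from -0.81 to 0.66), and it was 0.20, 0.09 and 0.03 without control replicate 1, control replicate 3 or GR_KO replicate 4. A second bright probe set, 1452363_a_at, followed the same order among the controls, with 932, 435, 847 and 269, and read 685, 550, 424 and 545 on the GR_KO arrays. In contrast 1427250_at ranged only from 282 to 414 over all 8 arrays, a log2 fold change of 0.04 ± 0.13 (SE). The 3 other probe sets, 1427251_at, 1437797_at and 1443551_at, had log2 fold changes of -0.35, -0.06 and 0.36, and the last was below the filter. None of the 6 Atp2a2 probe sets separated the groups.

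The luminal stores did not separate the groups either. Casq2, the calsequestrin of slow fibres and the heart, read 752, 549, 691 and 285 on control and 502, 680, 478 and 559 on GR_KO arrays at 1422529_s_at, a type of probe set that can match several transcripts. Control replicate 4 was the lowest of all 8 arrays and GR_KO signals lay inside the control range. The log2 fold change was 0.04 ± 0.27 (SE; 95% interval from -0.55 to 0.64) and was -0.26 without control replicate 4. Hrc, the histidine-rich calcium-binding protein that is known to interact with SERCA and triadin, read 6415, 6265, 5412 and 6373 on control and 4723, 7449, 7437 and 6293 on GR_KO arrays at 1419109_at. The GR_KO arrays lay on both sides of the controls, and the log2 fold change of 0.06 ± 0.17 (SE) had a 95% interval from -0.30 to 0.43.

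**Figure D2:**
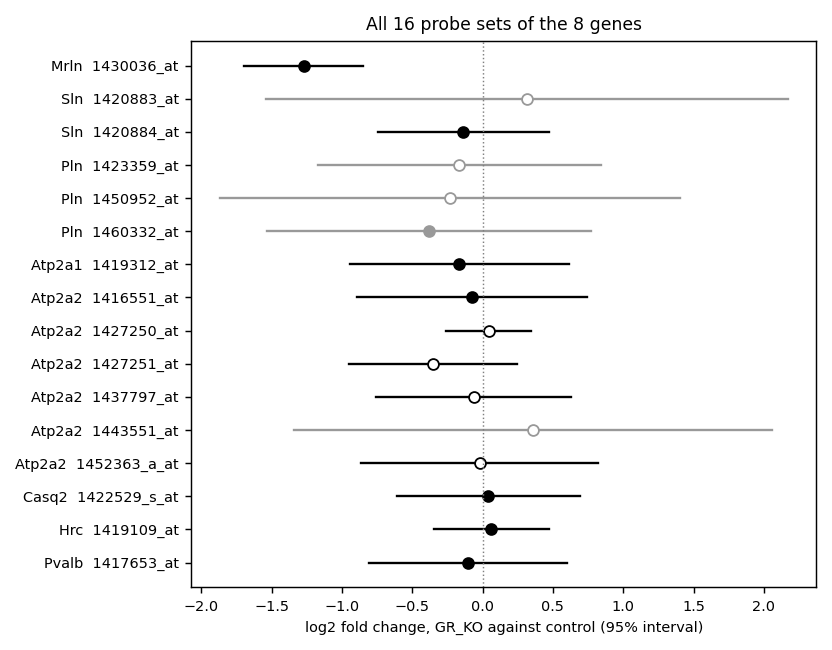
Log2 fold change (GR_KO against control) of all 16 probe sets in a limma fit over all probe sets, with 95% intervals; filled points are the brightest probe set of a gene and grey marks those below the signal filter. The Mrln interval runs from -1.70 to -0.85. This contrast chose the genes, so the intervals are given as a description and not as a test.

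Differences among arrays of one group do not use the contrast that chose the genes, so the genes' relations were tested on deviations from the group means over the 8 arrays. Exact permutation tests, two-sided, moved arrays within each group only, and the smallest p they can give is 0.00174. The fast-fibre pump and buffer followed the fast-fibre contractile genes. Pearson's r with the fast-fibre score was 0.993 for Atp2a1 (exact p = 0.00347, adjusted p = 0.0278 over 16 relations) and 0.997 for Pvalb (exact p = 0.00174, adjusted p = 0.0278). Spearman's rho was 0.881 (exact p = 0.0104, adjusted p = 0.0833) and 1 (exact p = 0.00174, adjusted p = 0.0278), and without the 2 arrays farthest from the median score r was 0.971 and 0.994. Without control replicate 4 the r values were 0.975 and 0.995. They were as high with the mean log2 signal of the 50 brightest probe sets that belong to none of the 8 genes (r of 0.986 and 0.996, exact p = 0.00521 and 0.00174, adjusted p = 0.0208 and 0.0139 over 8 relations), a comparison added after the values had been seen. Of these 50 probe sets, 11 belong to the fast-fibre list, and the others include ribosomal and mitochondrial genes such as Rpl38, Rps29 and Cox5b. Fibre type and the brightness of the array cannot be told apart here for Atp2a1 and Pvalb.

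Atp2a2 and Casq2 varied with the slow-fibre contractile genes, though this did not pass after adjustment. Pearson's r with the slow-fibre score was 0.908 for Atp2a2 (exact p = 0.0191, adjusted p = 0.0833 over 16 relations) and 0.912 for Casq2 (exact p = 0.0208, adjusted p = 0.0833). Spearman's rho was 0.881 (exact p = 0.0799, adjusted p = 0.256) and 0.786 (exact p = 0.0382, adjusted p = 0.153). Without the 2 arrays farthest from the median score, control replicates 4 and 1, r was 0.834 for Atp2a2 and 0.614 for Casq2, and without control replicate 4 alone 0.909 and 0.702. The same score gave r of 0.203 for Mrln and 0.398 for Sln (exact p = 0.403 and 0.410, both with adjusted p = 0.546), and rho of 0.333 and 0.548 (exact p = 0.323 and 0.247, adjusted p = 0.581 and 0.563). Without the 2 farthest arrays these r values were -0.14 and 0.07, and without control replicate 4 alone 0.080 and 0.460. With the fast-fibre score r was -0.15 for Mrln and 0.622 for Hrc (exact p = 0.648 and 0.0503, adjusted p = 0.691 and 0.161), and rho was -0.40 and 0.762 (exact p = 0.391 and 0.0295, adjusted p = 0.581 and 0.153). Without the 2 arrays farthest from the median score these r values were 0.693 and 0.825, so the sign for Mrln turned, and without control replicate 4 alone they were 0.023 and 0.965. With the 50 brightest probe sets r was 0.669 for Hrc, and 0.973 without control replicate 4. Fibre type and array brightness cannot be told apart for Hrc either. For Atp2a2 and Casq2 that r was -0.64 and -0.66, and -0.33 and 0.27 without control replicate 4. Of the 16 relations of a gene with a fibre score, 2 passed after adjustment, both with the fast-fibre score.

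**Figure D3:**
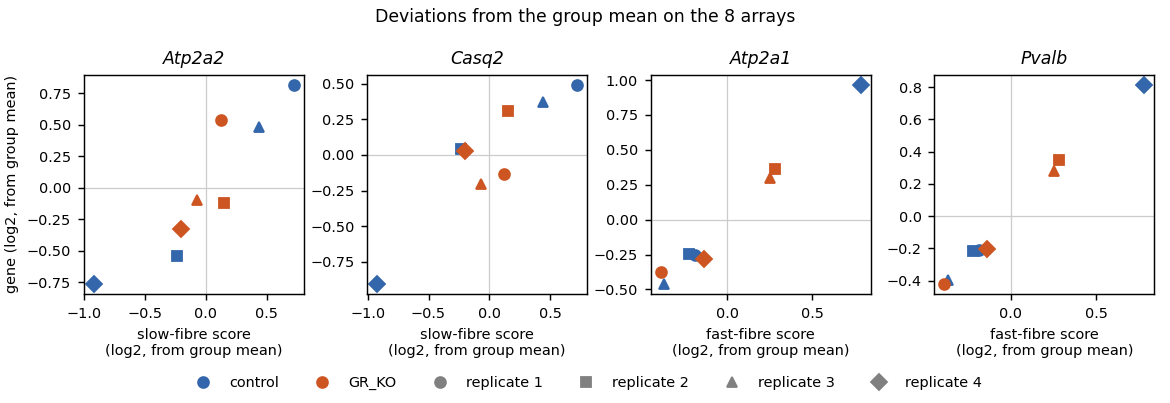
Each panel plots, for the 8 arrays, a gene's log2 signal against a fibre-type score, both as deviations from the group mean; colours are groups and symbols replicate numbers. Atp2a2 and Casq2 rise with the slow-fibre score (r of 0.908 and 0.912), Atp2a1 and Pvalb with the fast-fibre score (0.993 and 0.997), and control replicate 4 lies at the end of every panel.

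Of the 28 pairs among the 8 genes, 0 passed after adjustment, and by Pearson's r 1 had an exact p under 0.05. That pair was Atp2a1 and Pvalb (r = 0.995, exact p = 0.00347, adjusted p = 0.0972; rho = 0.881, exact p = 0.0104, adjusted p = 0.292; r = 0.985 without the 2 arrays farthest from the median). The 2 pumps had an r of -0.63 and a rho of -0.60 (exact p = 0.148 and 0.191, adjusted p = 0.535 and 0.729). The r was -0.34 without the 2 farthest arrays and -0.29 without control replicate 4. Hrc and Pvalb had an r of 0.640 and a rho of 0.762 (exact p = 0.0503 and 0.0295, adjusted p = 0.502 and 0.328). Hrc and Atp2a1 had 0.571 and 0.786 (exact p = 0.0538 and 0.0417, adjusted p = 0.502 and 0.328). These r values were 0.939 and 0.893 without control replicate 4, and 0.426 and 0.732 without the 2 arrays farthest from the median. For Mrln and Atp2a1 r was -0.14 and rho -0.29 (exact p = 0.698 and 0.493, adjusted p = 0.931 and 0.786). For Mrln and Atp2a2 r was 0.341 and rho 0.643 (exact p = 0.273 and 0.0469, adjusted p = 0.636 and 0.328), and r was 0.812 without the 2 arrays farthest from the Mrln median, GR_KO replicates 3 and 2, so its size rested on those arrays.

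By the likeness of their log2 signals over all 8 arrays, the tested genes closest to Mrln were Slc40a1, which encodes the iron exporter ferroportin (r = 0.991), the small GTPase gene Rasl11b (0.978), Phka1, a subunit of phosphorylase kinase (0.958), the glucose transporter gene Slc2a3 (0.955) and Paip2b (0.953), an inhibitor of translation. These r values contain the group difference. Slc40a1 read 331, 298, 323 and 317 on control and 195, 153, 213 and 176 on GR_KO arrays. Like Mrln it was highest in GR_KO replicate 3 and lowest in GR_KO replicate 2 among the GR_KO arrays, and its groups did not overlap. Its log2 fold change was -0.79 ± 0.14 (SE, adjusted p = 0.140 in limma) and that of Slc2a3 -1.33 ± 0.19 (adjusted p = 0.0476). Those of Rasl11b, Phka1 and Paip2b were -0.40, -0.26 and -0.53 (adjusted p = 0.880, 0.880 and 0.777). In deviations from the group means the 5 closest were Rasl11b (r = 0.978), Mcm6, a replication helicase subunit (0.951), Asb18 (0.948), Tcf15 (0.943) and Slc40a1 (0.935). For Sln they were Prkcq, a protein kinase C (0.968), the mitochondrial carrier gene Ucp3 (0.964), Ubfd1 (0.920), Coq3, of coenzyme Q synthesis (0.913), and Bhlhe40, a clock repressor (0.908). These are the highest of 11062 values over 8 arrays, given as a description.

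Around these 8 genes, no gene of the wider calcium machinery was called, as was so for nearly all tested genes. In 7 lists of calcium-handling genes, 74 genes were tested, and 0 were called lower and 0 higher in limma (1 at an unadjusted p under 0.05, or 1.35%, against 4.63% of all tested genes). Over all tested genes 0.0542% were called lower and 0% higher, so 0 of 74 says little about these lists. The smallest adjusted p among them was 0.880. Among the 74, 34 lay below 0 and 40 above, with a median log2 fold change of 0.04, against 0.01 over all genes tested, of which 47.8% were below 0. No gene of these lists had groups that did not overlap, where 1.29% of all tested genes were separated downward and 1.28% upward. Atp2a3, the third SERCA gene, read 74, 111, 102 and 148 on control and 113, 121, 74 and 99 on GR_KO arrays, a log2 fold change of -0.08 ± 0.23 (SE, adjusted p = 0.953). Smim6, which encodes another micropeptide of the family, was below the signal filter, and Strit1, which encodes a peptide that counters the inhibitors, was not analysed here.

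Of 13 other luminal and calsequestrin-complex genes, 11 had a log2 fold change above 0 (median 0.09). The 2 with the smallest p were Asph, the locus of junctin (0.24 ± 0.15 SE), and the calcium-binding chaperone gene Calr (0.29 ± 0.19), each with an adjusted p of 0.880. With a gene's probe sets averaged these were -0.19 and 0.082, so that Asph turned. Among 6 cytosolic calcium-binding proteins the median was 0.06, and S100a6 and Cib1 had 0.42 and 0.19 (adjusted p = 0.880 and 0.895), and Cib1 was -0.029 with its probe sets averaged. Among 16 kinases, phosphatases and partners that act on phospholamban or the pump, 9 were above 0 and 7 below (median 0.16). The calcium/calmodulin kinase gene Camk2a had 0.60 ± 0.30 (SE) and Prkar1a, a regulatory subunit of protein kinase A, -0.55 ± 0.28, both with an adjusted p of 0.880. With probe sets averaged Camk2a was -0.0069 and Prkar1a -0.11, so both values rested on the brightest probe set. At that probe set Camk2a signals were 1039, 1340, 854 and 595 on control and 1065, 903, 2092 and 1858 on GR_KO arrays, so that GR_KO replicates 3 and 4 lay above all others while replicates 1 and 2 lay among the controls.

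Calcium release and triad genes were evenly divided, 7 of 14 on each side of 0, with a median of -0.01. The voltage sensor gene of the triad, Cacna1s, had a log2 fold change of 0.32 ± 0.18 (SE) and Jph2, which ties the reticulum to the cell membrane, 0.26 ± 0.17, both with an adjusted p of 0.880, and Jph2 was -0.014 with its probe sets averaged. Of 12 genes of calcium export, entry and mitochondrial uptake, 8 were above 0 (median 0.08). Slc8a1, the sodium-calcium exchanger, had -0.53 ± 0.22 and was the gene of the 74 with an unadjusted p under 0.05 (0.0319, adjusted p = 0.880). It read 59, 71, 53 and 42 on control and 37, 40, 44 and 33 on GR_KO arrays, with only GR_KO replicate 3 reaching into the control range, and its value was -0.17 with its probe sets averaged. Mcu, the pore of the mitochondrial calcium uniporter, had 0.35 ± 0.17 (adjusted p = 0.880). Of 12 calcineurin genes and targets 10 were below 0 (median -0.08), and Nfatc2 and Myoz2, a calcineurin-binding protein of slow fibres, had -0.30 ± 0.15 and -0.37 ± 0.23, both with an adjusted p of 0.880, and Nfatc2 turned to 0.31 with its probe sets averaged.

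The fibre-type lists leaned with control replicate 4. Of 9 slow-fibre contractile genes 8 had a log2 fold change above 0 (median 0.32), and without that array the median was -0.04. Tnnc1 had 0.52 ± 0.43 (SE) and Tnni1 0.53 ± 0.51 (adjusted p = 0.880 and 0.881), and Tnni1 read 986, 499, 1100 and 142 on control against 675 to 808 on GR_KO arrays. Without control replicate 4 the Tnni1 value was -0.10. All 9 fast-fibre contractile genes were below 0 (median -0.08), and without that array the median was 0.17. Tnnc2 had -0.19 ± 0.31 and Myh4 -0.14 ± 0.32 (adjusted p = 0.916 and 0.939), and these were 0.14 and 0.22 without control replicate 4.

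**Figure D4:**
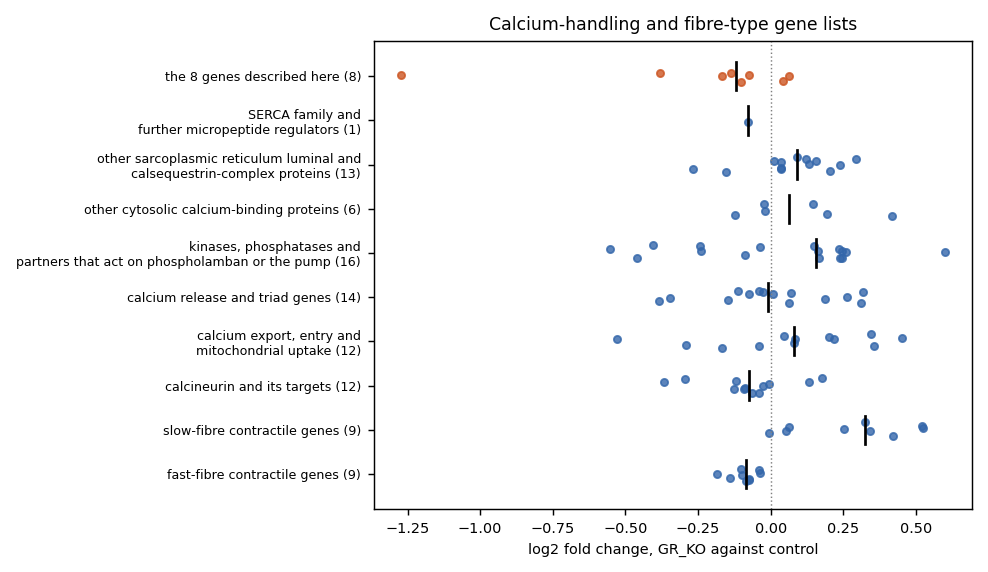
Log2 fold change (GR_KO against control) of each tested gene of the calcium-handling and fibre-type lists, with black bars at the list medians and the 8 genes described here on top, Pln from the fit without the filter. Every gene of the other lists lies between -0.55 and 0.60. Mrln is at -1.27, but it was chosen for its difference on these arrays, so nothing is read from its place.

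**Figure D5:**
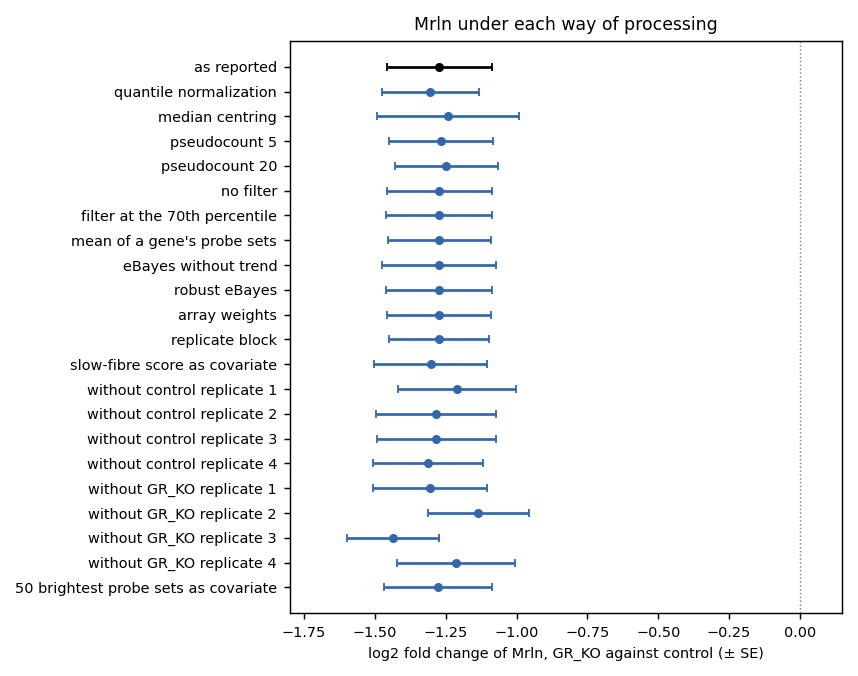
Log2 fold change of Mrln ± SE, GR_KO against control, as reported and under each alternative way of processing or with single arrays left out. All values lie between -1.44 and -1.13. This contrast chose Mrln and its groups did not overlap, so nothing is read from the kept sign.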

How the data were processed

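The deposited values are linear MAS5 signal intensities as whole numbers, made by the authors (MAS5, per the submitters' processing notes); the sources used here give neither version nor scaling target. Trimmed means (2% left out at each end) were alike on all arrays, so the authors had scaled them before deposit. Of 45101 probe sets, 64 were controls and left out. Symbols came from the platform annotation, updated through RefSeq gene identifiers (GRCm38.p6). The log2 signal was used with no pseudocount, zeros took the array's smallest positive value, and each gene was represented by its brightest probe set.

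Group differences came from limma 3.58.1 under R 4.3.3 (lmFit, eBayes with trend, group alone, two-sided, Benjamini-Hochberg over all genes, threshold 0.05). Fold changes are GR_KO against control from mean log2 signals. Since separate animals are not stated, p-values cover only the variation among these samples, part of which may be technical. Probe-set values come from a fit over all non-control probe sets. On simulated data for this comparison (11062 genes, 200 changed, 20 runs) the test called 56.3% of genes shifted by 1.00 in log2 and 81.2% of those shifted by 1.50, and 5.27% of calls were false. The simulated noise was drawn independently for each gene and array, with no array that stood apart. These rates need not hold for the real arrays.

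The genes and lists were chosen with earlier results of these data known. Named genes were the 8 genes, Nr3c1, the 2 genes per list with the lowest p and the 5 most like Mrln or Sln, passing over predicted transcripts. Alternatives covered normalization, pseudocount, filter, probe sets of a gene, variance model, replicate block, covariates and single arrays left out. Precision is limited by how few arrays there were. Figures used Python 3.11.15.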

Additional observations from a re-analysis of the deposited data

Results flagged for a closer look

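Of 32 groups of 4 signals (16 probe sets in 2 groups), 4 had 1 array far from the others by Dixon's test. Chance flags about 1 in 20 groups of independent values. These groups share arrays and some hold tied signals, so the count is not read against that rate. Control replicate 4 was far above the other controls for Atp2a1, at a signal of 27942 against 10367 to 12021, and for Pvalb, at 24229 against 10473 to 11908. The same array had the highest spike-in and fast-fibre values. For Hrc, control replicate 3 was below the others, at 5412 against 6265 to 6415. For the dim Sln probe set 1420883_at, control replicate 1 read 10 and the other controls 1 each. With the other controls tied, any different signal would have been flagged.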

How the results depend on the processing

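The Mrln difference ran from -1.31 with quantile normalization to -1.24 with median centring under the 13 alternatives on 8 arrays. It was not among the called genes, a count from which nothing is read since this contrast chose it, with median centring, with no filter, with probe sets averaged, with eBayes without trend and with the replicate block (-1.27 in all but the first), with the slow-fibre score as covariate (-1.30) and with the 50 brightest probe sets as covariate (-1.28, added after seeing the data). Leaving out single arrays gave -1.44 to -1.13. The filter, the variance model and the replicate block cannot move this value. With groups that did not overlap, no array left out could turn its sign. Nothing is therefore read from the kept direction. The 6 genes called lower became 0 with no filter, 1 with probe sets averaged, 2 without trend, 10 with array weights, 1 with the replicate block, 3 with the slow-fibre score as covariate, and 0 to 5 with single arrays left out. The cause was not tested. The labels state no pairing of samples by replicate number. Deviations of same-numbered samples correlated at -0.19, 0.18, 0.11 and -0.39, and so few values cannot settle whether samples were paired. No gene was called higher, and no gene of the calcium lists was called, under any of these alternatives (limma, 125 to 612 higher genes at an unadjusted p under 0.05). At most 10 genes were called in any of them, so the 0 for the calcium lists says little.

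None of the differences that changed sign was called. Hrc was -0.027 with quantile normalization, and Sln was 0.090 with probe sets averaged, where Asph was -0.19, Cib1 -0.029, Camk2a -0.0069, Jph2 -0.014, Nfatc2 0.31 and Myh4 0.0080. With array weights Atp2a1 was 0.15, Casq2 -0.16, Pvalb 0.18, Tnnc2 0.15 and Myh4 0.20. With the slow-fibre score as covariate Atp2a1 was 0.025, Casq2 -0.18, Pvalb 0.062, Atp2a3 0.047, Tnnc2 0.0029 and Myh4 0.072. With the 50 brightest as covariate Casq2 was -0.0065. Single arrays left out gave -0.32 to 0.026 for Sln, -0.32 to 0.16 for Atp2a1, -0.33 to 0.20 for Atp2a2, -0.26 to 0.21 for Casq2, -0.013 to 0.21 for Hrc, -0.23 to 0.17 for Pvalb, -0.25 to 0.086 for Atp2a3, -0.10 to 0.88 for Tnni1, -0.35 to 0.14 for Tnnc2 and -0.30 to 0.22 for Myh4. The low signals of Pln and Sln limit what could be seen for them.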
